A study of Mus musculus with 9 samples.

Results

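The genes of the kinesin motors, of their light chains and of cytoplasmic dynein with its cofactor dynactin were followed in cultured mouse cortical neurons depleted of Tdp-43, an RNA-binding protein encoded by Tardbp. They were chosen by name, as every platform symbol that starts with Kif, Klc, Dync or Dctn followed by a digit. This gave 54 genes of 22103 with a symbol of their own, covered by 1621 probe sets. Neurons came from C57BL/6 mouse embryos of day 15, were treated with AraC, an agent that kills dividing cells, on day 2 and on day 5 received, for 4 h, lentivirus that expresses a short hairpin RNA (shRNA). They were kept for 6 further days and harvested on day 11. All 3 groups of 3 arrays carried a virus: shCont had a control hairpin, and shTdp-43-1 and shTdp-43-2 had different hairpins against Tdp-43 in otherwise equal cultures. No promoter, clone or share of infected cells is given in the sources used here, and nothing says that replicates came from separate cultures, so the p-values measure the spread between these samples, which may be technical. The sample labels and the title speak of cortical neurons and the design text of motor neurons. The design text also places the harvest 11 days after transfection, where the sample protocols count 11 days of culture with 6 after infection, so the length of the depletion is uncertain; the sample labels were followed.

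Kinesins are ATP-driven motors, most of which walk towards the plus ends of microtubules and so carry vesicles, mitochondria and RNA down the axon. Cytoplasmic dynein, working with dynactin, walks the other way and returns endosomes and signals to the cell body. Other kinesins build the mitotic spindle, shorten microtubules or serve cilia. Variants of the genes for the kinesin heavy chain KIF5A and the largest dynactin subunit DCTN1 are known in human motor neuron disease.

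Each gene is given as the mean log2 intensity of its probe sets whose mean over the 9 arrays reached the median of the whole table, 6.07, called kept probe sets here. Genes with at least 3 kept probe sets were tested, which held for 52 of the 54 with 1411 probe sets. Kif2b and Kif4b have 1 probe set each, which was not kept, and are not described further. A gene was called, and is said to have risen or fallen, at a limma adjusted p under 0.05 (Benjamini-Hochberg over all 16770 genes tested). Tardbp, the check of the knockdown, was at 30.4% of its shCont level with shTdp-43-1 and at 30.9% with shTdp-43-2. Arrays of the same group correlated with r from 0.985 to 0.994 across genes.

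Of the 52 motor genes, 2 rose and 2 fell with shTdp-43-1, and 4 rose and 4 fell with shTdp-43-2. Over all genes tested, 5.16% rose and 5.96% fell with the first hairpin and 7.76% and 14.1% with the second. Called genes made up 7.69% and 15.4% of the motor genes, against 11.1% and 21.9% of all genes tested. An unadjusted p under 0.05 (limma) was reached by 6 and 11 motor genes, and by 4623 and 5616 of all 16770 genes. In the mean of both hairpins 2 rose and 3 fell, or 9.62% against 19.3% of all genes (7.42% higher and 11.9% lower). With both hairpins 3 motor genes were called the same way, or 5.77% against 6.45% of all genes (2.95% higher and 3.49% lower): Kif5a and Kif21b, which rose, and Kif21a, which fell. No motor gene was called in opposite directions. Both comparisons use the same shCont arrays. Set directly against each other, the hairpins differed in 3 motor genes, 1 higher and 2 lower with shTdp-43-2 (5.77%, against 11.5% of all genes, 4.22% higher and 7.31% lower); without shTdp-43-1 replicate 2 or 3, or without shTdp-43-2 replicate 1, it was 1 gene. On 5 motor genes all 6 knockdown arrays lay on the same side of all 3 shCont arrays (9.62%, against 18.7% of all genes), namely Kif5a, Kif21a, Kif21b, Kif3b and Kif3c. The median change of the 52 genes in the mean of both hairpins was -0.0277 on the log2 scale, against -0.00227 for all genes.

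The shTdp-43-1 count fell from 4 to 2 without shCont replicate 1, without shCont replicate 2 and without shTdp-43-1 replicate 3, and the shTdp-43-2 count fell from 8 to 5 without shTdp-43-2 replicate 1. The count in the mean fell from 5 to 3 without shCont replicate 1, 2 or 3. Centring the arrays on their medians turned the splits into higher and lower to 2 and 1 (shTdp-43-1), 6 and 3 (shTdp-43-2) and 4 and 2 (the mean), and after quantile normalization the mean had 3 and 2.

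**Figure D1:**
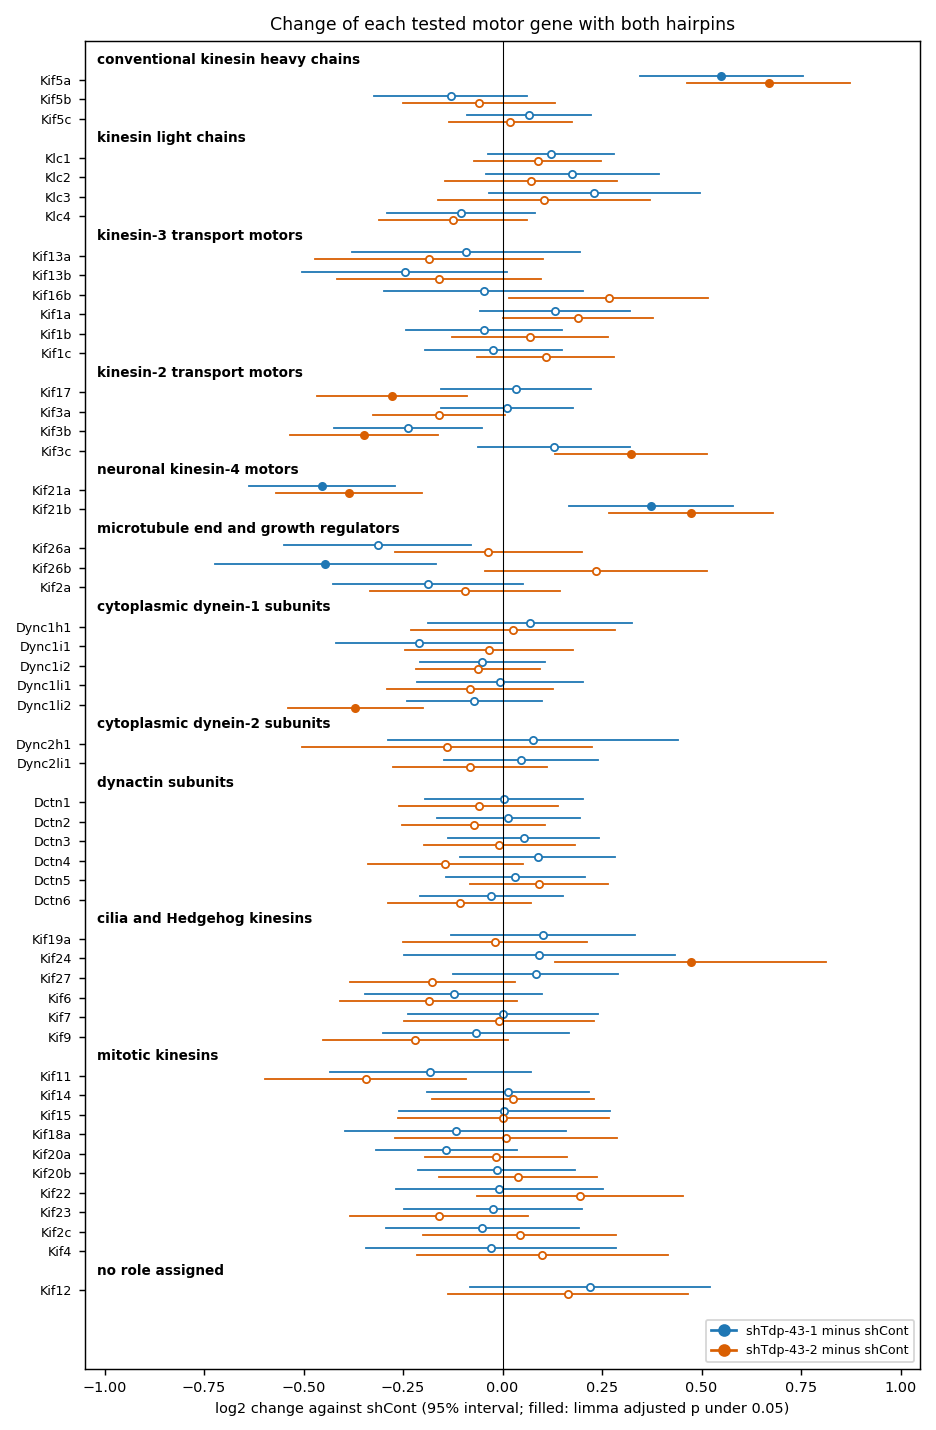
Log2 change of each of the 52 tested motor genes against shCont (x axis), with its 95% interval, for shTdp-43-1 (blue) and shTdp-43-2 (orange), n = 3 arrays per group; filled points have a limma adjusted p under 0.05. Kif5a and Kif21b stand to the right of 0 and Kif21a to the left with both hairpins, while all 6 dynactin subunits and the 10 mitotic kinesins have open points.

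Of the 9 motor genes called with either hairpin, 6 had a promoter window among those taken from RefSeq (build GRCm38.p6). The 250 bases before the annotated start are shown for Kif21a, the gene that fell with both hairpins, and for Kif3b and Kif3c, which moved in opposite directions with shTdp-43-2. They are written 5' to 3' on the strand of the gene, in lower case, with capitals for the GC box GGGCGG and the CCAAT box CCAAT searched on both strands (CCGCCC and ATTGG on the other). The windows lie at chr15:91049952-91050201 (minus strand), chr2:153291166-153291415 (plus strand) and chr12:3364882-3365131 (plus strand).
Kif21a: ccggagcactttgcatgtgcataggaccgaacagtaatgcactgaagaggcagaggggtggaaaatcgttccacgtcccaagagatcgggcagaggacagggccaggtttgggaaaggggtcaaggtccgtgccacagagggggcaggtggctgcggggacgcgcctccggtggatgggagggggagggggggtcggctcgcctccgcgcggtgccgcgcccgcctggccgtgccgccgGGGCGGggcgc
Kif3b: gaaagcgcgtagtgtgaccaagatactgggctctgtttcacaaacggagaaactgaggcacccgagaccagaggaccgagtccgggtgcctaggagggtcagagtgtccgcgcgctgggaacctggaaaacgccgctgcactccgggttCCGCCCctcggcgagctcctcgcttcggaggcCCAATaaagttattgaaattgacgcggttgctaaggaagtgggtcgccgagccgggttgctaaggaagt
Kif3c: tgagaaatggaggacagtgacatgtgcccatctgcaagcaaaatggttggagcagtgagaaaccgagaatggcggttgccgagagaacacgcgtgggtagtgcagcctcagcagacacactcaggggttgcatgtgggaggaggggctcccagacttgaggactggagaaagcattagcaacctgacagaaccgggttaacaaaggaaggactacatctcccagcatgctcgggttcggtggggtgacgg
The Kif21a window holds 23 CpG dinucleotides and the Kif3b window 22, while the Kif3c window holds 9, and the median over all 32851 such windows is 6. Kif21a has 1 GC box, Kif3b has 1 GC box and 1 CCAAT box, and Kif3c has neither. Over the 47 windows of 41 motor genes the GC box occurs in 57.4%, against 32.7% of all windows. A TATA box (TATAAA, both strands) is in none of the 3 shown and in 12.4% of all windows. These matches describe the letters only.

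The conventional kinesin heavy chains, the motors that pull most fast axonal cargo, split into 1 gene that rose and 2 that were not called. Kif5a, the heavy chain largely restricted to neurons, had log2 values of 10.92, 10.99 and 10.91 on the shCont arrays. It had 11.63, 11.35 and 11.49 with shTdp-43-1 and 11.68, 11.67 and 11.48 with shTdp-43-2. Every knockdown array lay above every shCont array. Kif5a thus rose 1.46-fold with shTdp-43-1 (log2 change 0.55 ± 0.0936 SE, n = 3 against 3, limma adjusted p = 0.0042) and 1.59-fold with shTdp-43-2 (0.67 ± 0.0936, limma adjusted p = 0.00051). Its change was the largest of the 52 genes in the mean of both hairpins, 0.61 ± 0.0811. All 38 of its probe sets were higher with each hairpin, from 0.22 to 0.77 in the mean, although probe sets of a gene are not replicates. Between the hairpins it differed by 0.12 (95% interval -0.09 to 0.32). In bulk RNA, fewer cells of a type and less RNA per cell cannot be told apart, here and in all that follows.

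The other heavy chains were not called. Kif5b, the heavy chain found in most cells, read 10.88, 11.00 and 11.05 in shCont, 10.86, 10.78 and 10.90 with shTdp-43-1 and 10.83, 11.06 and 10.86 with shTdp-43-2. Kif5c, also a neuronal heavy chain, read 11.67, 11.76 and 11.73 in shCont, 11.78, 11.76 and 11.82 with shTdp-43-1 and 11.72, 11.77 and 11.73 with shTdp-43-2. The change in the mean of both hairpins was -0.09 for Kif5b (95% interval -0.26 to 0.07) and 0.04 for Kif5c (-0.09 to 0.18), so both intervals lie below that of Kif5a (0.43 to 0.79). Relative to its shCont mean, the log2 difference between Kif5a and Kif5b was 0.68 ± 0.11 (SD, n = 3) with shTdp-43-1 and 0.73 ± 0.137 (SD, n = 3) with shTdp-43-2; such differences between paralogues were picked after the values were seen and are given without a test.

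The kinesin light chains couple these heavy chains to cargo. None of the 4 was called by limma with either hairpin, and none had an unadjusted p under 0.05 there or in the mean (0 of 4 each). Of all genes 11.1% were called with shTdp-43-1 and 21.9% with shTdp-43-2. The unadjusted threshold was passed by 4623 and 5616 of 16770 there, and by 5577 in the mean. Klc1, the main light chain of neurons, changed by 0.11 in the mean of both hairpins, Klc2 by 0.12, Klc3 by 0.17 and Klc4 by -0.11. The intervals of the 4 reach from -0.28 to 0.40.

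The kinesin-4 pair Kif21a and Kif21b, neuronal motors that restrain microtubule growth, moved in opposite directions with both hairpins. Kif21a read 10.81, 10.77 and 10.75 in shCont, 10.30, 10.22 and 10.45 with shTdp-43-1 and 10.41, 10.46 and 10.30 with shTdp-43-2. Kif21b read 10.87, 10.93 and 11.03 in shCont, 11.43, 11.20 and 11.32 with shTdp-43-1 and 11.53, 11.45 and 11.27 with shTdp-43-2. Neither gene's knockdown arrays overlapped its shCont arrays. With shTdp-43-1 Kif21a fell to 73.0% of its shCont level (-0.45 ± 0.0835 SE on the log2 scale, limma adjusted p = 0.00638) and to 76.5% with shTdp-43-2 (-0.39 ± 0.0835, limma adjusted p = 0.00665). Kif21b rose 1.29-fold (0.37 ± 0.0941, limma adjusted p = 0.0277) and 1.39-fold (0.47 ± 0.0941, limma adjusted p = 0.00406).

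Lower with each hairpin were 38 of the 40 probe sets of Kif21a. Of the 48 of Kif21b, 47 were higher with shTdp-43-1 and 45 with shTdp-43-2. The log2 difference between Kif21b and Kif21a, relative to its shCont mean, was 0.96, 0.81 and 0.71 on the shTdp-43-1 arrays and 0.95, 0.82 and 0.80 on the shTdp-43-2 arrays, against -0.10, -0.01 and 0.11 in shCont. The shTdp-43-1 call of Kif21b was lost without shCont replicate 1, shCont replicate 2, shTdp-43-1 replicate 1 or shTdp-43-1 replicate 3, with gene values taken as medians of probe sets and with genes of 1 or 2 probe sets included (limma adjusted p up to 0.106). Its other calls, and all calls of Kif5a and Kif21a, held in every setting tried.

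**Figure D2:**
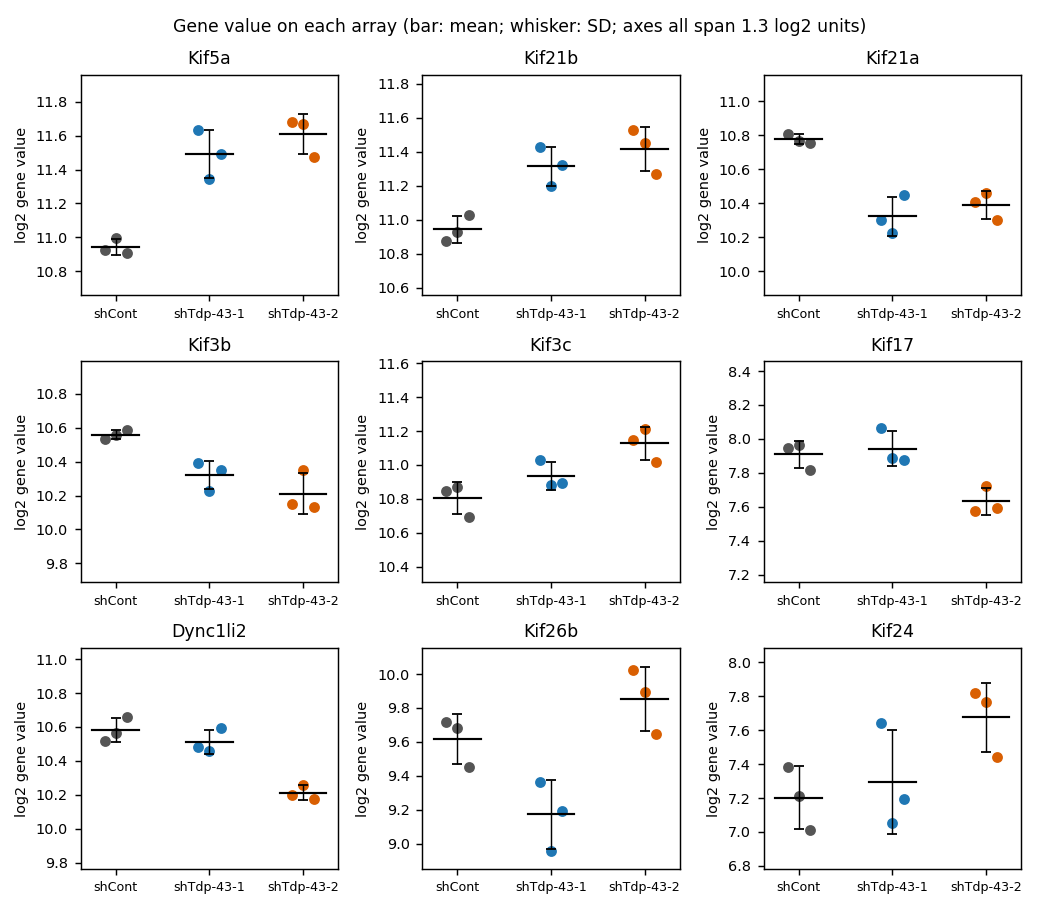
Log2 gene value (y axis) on each array of shCont, shTdp-43-1 and shTdp-43-2 for the 9 motor genes called with either hairpin; bars are means, whiskers SD, and each axis spans the same range. Kif5a and Kif21b are above shCont on all 6 knockdown arrays and Kif21a and Kif3b below it, whereas Dync1li2 and Kif17 are low on the 3 shTdp-43-2 arrays alone.

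The kinesin-2 motors combine Kif3a with either Kif3b or Kif3c, while Kif17 forms its own motor, which is known to carry NMDA receptor vesicles in dendrites. With shTdp-43-1 limma called 0 of the 4, although 1 reached an unadjusted p under 0.05, whereas 1 rose and 2 fell with shTdp-43-2. Of all genes, 11.1% and 21.9% were called with these hairpins, and 4623 and 5616 of 16770 had an unadjusted p under 0.05. Kif3b read 10.53, 10.56 and 10.59 in shCont, 10.39, 10.23 and 10.35 with shTdp-43-1 and 10.15, 10.35 and 10.13 with shTdp-43-2. All its knockdown arrays were below all shCont arrays, and it fell to 78.6% with shTdp-43-2 (-0.35 ± 0.0846 SE, limma adjusted p = 0.0122) against a change of -0.24 ± 0.0846 with shTdp-43-1 (limma adjusted p = 0.0944). In the mean of both hairpins it fell by 0.29 ± 0.0732 (limma adjusted p = 0.0168), a call lost without shCont replicate 1, 2 or 3 and with no filter on dim probe sets.

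Kif3c, the neuronal alternative to Kif3b, read 10.85, 10.87 and 10.69 in shCont, 11.03, 10.88 and 10.89 with shTdp-43-1 and 11.15, 11.21 and 11.02 with shTdp-43-2. The shTdp-43-2 arrays lay above all others except shTdp-43-1 replicate 1, which was above the lowest of them. Kif3c rose 1.25-fold with shTdp-43-2 (0.32 ± 0.087 SE, limma adjusted p = 0.0205) and changed by 0.13 ± 0.087 with shTdp-43-1 (limma adjusted p = 0.349); the rise was not called without shTdp-43-2 replicate 1, shTdp-43-2 replicate 2 or shCont replicate 3. The log2 difference between Kif3c and Kif3b, relative to its shCont mean, was 0.37 ± 0.0576 (SD, n = 3) with shTdp-43-1 and 0.67 ± 0.0697 (SD, n = 3) with shTdp-43-2. With shTdp-43-2, 23 of the 25 probe sets of Kif3b were lower and 17 of the 20 of Kif3c were higher. Their shared partner Kif3a changed by -0.07 in the mean of both hairpins (95% interval -0.22 to 0.07).

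Kif17 read 7.95, 7.96 and 7.81 in shCont, 8.06, 7.89 and 7.87 with shTdp-43-1 and 7.57, 7.72 and 7.60 with shTdp-43-2, so that only the latter group lay below shCont. It fell to 82.5% with shTdp-43-2 (-0.28 ± 0.086 SE, limma adjusted p = 0.0387) and differed between the hairpins (-0.31 ± 0.086, limma adjusted p = 0.0381). The first call was kept in 7 and the second in 5 of 19 other settings, with limma adjusted p up to 0.131 and 0.149. Among the libraries, the first was lost without shCont replicate 1 or 2, shTdp-43-1 replicate 2 or shTdp-43-2 replicate 1 or 3, and the second also without shTdp-43-1 replicate 1 or 3.

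**Figure D3:**
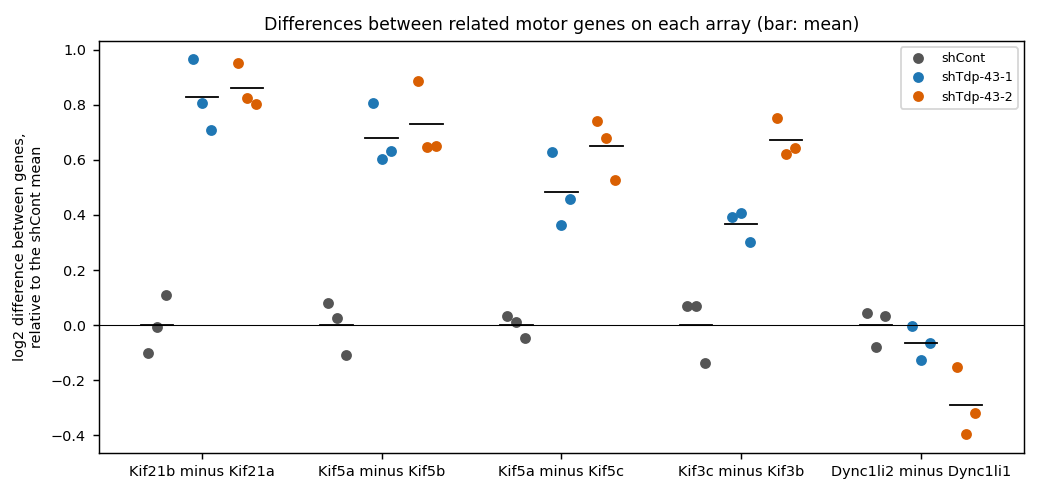
Log2 difference between related motor genes (y axis) on each array, relative to the mean of the 3 shCont arrays, coloured by group; bars are group means. The difference between Kif21b and Kif21a lies between 0.71 and 0.96 on the 6 knockdown arrays, and that between Kif3c and Kif3b is larger on every shTdp-43-2 array than on any shTdp-43-1 array.

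The kinesin-3 motors move synaptic vesicle precursors and endosomes and include Kif1a, the main carrier of synaptic vesicle precursors. None of the 6 was called by limma, against 11.1% of all genes with shTdp-43-1 and 21.9% with shTdp-43-2. With an unadjusted p under 0.05 there were 0 with shTdp-43-1 and 2 with shTdp-43-2, namely Kif1a and Kif16b, chosen after their values were seen. Of all 16770 genes, 4623 and 5616 had one. Kif1a changed by 0.16 ± 0.0747 in the mean of both hairpins (limma adjusted p = 0.156), and 51 of its 52 probe sets were above 0. Kif16b, a motor of early endosomes, had a change of 0.27 with shTdp-43-2 (limma adjusted p = 0.124) and of -0.05 with shTdp-43-1. Kif1b, Kif1c, Kif13a and Kif13b changed by 0.01, 0.04, -0.14 and -0.20 in the mean.

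Among the kinesins that act on microtubule ends and growth, Kif26b, a kinesin without ATP-driven movement that takes part in Wnt signalling, differed most between the hairpins. It read 9.72, 9.68 and 9.45 in shCont, 9.37, 8.96 and 9.19 with shTdp-43-1 and 10.02, 9.89 and 9.65 with shTdp-43-2. The shTdp-43-1 arrays lay below all others and the shTdp-43-2 arrays overlapped shCont. Kif26b fell to 73.4% with shTdp-43-1 (-0.45 ± 0.127 SE, limma adjusted p = 0.0441), and changed by 0.23 ± 0.127 with shTdp-43-2 (limma adjusted p = 0.225). The difference between the hairpins was 0.68 ± 0.127 (limma adjusted p = 0.00583) and was called in all 19 other settings, while the fall with shTdp-43-1 was called in 8 of 19 (limma adjusted p up to 0.157) and not without shCont replicate 1 or 2, shTdp-43-1 replicate 2 or 3 or shTdp-43-2 replicate 2.

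For its relative Kif26a the shTdp-43-1 change was -0.31 ± 0.107 (limma adjusted p = 0.0842) and the shTdp-43-2 change -0.04 ± 0.107. Kif2a, which shortens microtubules and prunes neurites, changed by -0.14 in the mean of both hairpins (limma adjusted p = 0.32).

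Limma called 0 of the 13 dynein and dynactin subunits with shTdp-43-1, against 11.1% of all genes. There 0 had an unadjusted p under 0.05, against 4623 of all 16770 genes. With shTdp-43-2 it called 1 (7.69%, against 21.9% of all genes). That gene was Dync1li2, a light intermediate chain that binds cargo adaptors. It read 10.52, 10.57 and 10.66 in shCont, 10.48, 10.46 and 10.59 with shTdp-43-1 and 10.20, 10.26 and 10.18 with shTdp-43-2, and the shTdp-43-2 arrays lay below all the others. It fell to 77.4% with shTdp-43-2 (-0.37 ± 0.0776 SE, limma adjusted p = 0.00552), a call kept in all 19 other settings, and changed by -0.07 ± 0.0776 with shTdp-43-1 (limma adjusted p = 0.568). Of its 18 probe sets, 16 were lower and 2 higher with shTdp-43-2. The difference between the hairpins, -0.30 ± 0.0776 (limma adjusted p = 0.0285), was called in 10 of 19 other settings and not without any 1 replicate of shTdp-43-1 or without shTdp-43-2 replicate 1 or 3. Its fall in the mean of both hairpins (-0.22 ± 0.0672, limma adjusted p = 0.0398) was called in 4 of 18 other settings, and among single libraries was kept only without shTdp-43-2 replicate 2 or shTdp-43-1 replicate 3.

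The other light intermediate chain, Dync1li1, changed by -0.04 in the mean. Dync1h1, the heavy chain that holds the motor, changed by 0.05 (95% interval -0.17 to 0.27), with 84 probe sets the best covered motor of dynein-1. The intermediate chains Dync1i1 and Dync1i2, which bind dynactin, changed by -0.12 and -0.06. The dynein-2 subunits of cilia, Dync2h1 and Dync2li1, changed by -0.03 and -0.02.

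All 6 dynactin subunits stayed uncalled with limma in every comparison, with 0 at an unadjusted p under 0.05 against shCont with either hairpin. Of all genes 11.1% were called with shTdp-43-1 and 21.9% with shTdp-43-2, and 4623 and 5616 of 16770 passed the unadjusted threshold. Their changes in the mean of both hairpins had 95% intervals that together reach from -0.22 to 0.21. Dctn1, the subunit that binds microtubules and dynein, read 10.79, 10.72 and 10.57 in shCont, 10.82, 10.66 and 10.62 with shTdp-43-1 and 10.74, 10.61 and 10.55 with shTdp-43-2, and the 3 groups overlapped. Dctn2 to Dctn6 changed by -0.03, 0.02, -0.03, 0.06 and -0.07 in order. The median half-width of the 95% interval over the 52 genes was 0.207 for a single hairpin and 0.179 for the mean, and a change smaller than this lies within the error of a typical gene.

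Mitotic kinesins were kept apart from the transport motors. Of the 11 in the data 10 were tested, and 0 were called by limma with either hairpin, against 11.1% and 21.9% of all genes. This group is dim. Its mean log2 value ranged from 7.51 to 7.755 over the shCont arrays, against 9.87 to 9.89 for the other motor genes. As RMA compresses dim probe sets, changes here may be understated. At an unadjusted p under 0.05 there were 0 for shTdp-43-1 (against 4623 of all 16770 genes) and 1 for shTdp-43-2 (against 5616). The latter was Kif11, which pushes spindle poles apart and also acts in neurites; it read 8.77, 8.64 and 8.51 in shCont, 8.65, 8.34 and 8.39 with shTdp-43-1 and 8.39, 8.40 and 8.10 with shTdp-43-2. Its shTdp-43-2 arrays lay below shCont, and its change there was -0.34 ± 0.115 SE (limma adjusted p = 0.0529). The others, Kif2c, Kif4, Kif14, Kif15, Kif18a, Kif20a, Kif20b, Kif22 and Kif23, changed by -0.09 to 0.09 in the mean of both hairpins. Of 16 tested markers of dividing cells 0 were called by limma with shTdp-43-1 (0 at an unadjusted p under 0.05), against 11.1% of all genes. With shTdp-43-2 3 rose, Ccnb2, Ccna2 and Tpx2 (0.42, 0.31 and 0.34), or 18.8% against 21.9% of all genes. In the mean of both hairpins 1 rose (6.25%, against 19.3%). The mean log2 value of the 16 markers ranged from 8.10 to 8.31 over the shCont arrays, 8.13 to 8.36 over shTdp-43-1 and 8.19 to 8.51 over shTdp-43-2; their part in the values of the mitotic kinesins was not tested.

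Of 42 tested motor genes outside the mitotic group 9.52% were called with shTdp-43-1 and 19.0% with shTdp-43-2. Among the 19 transport kinesins and light chains 2 rose and 1 fell with shTdp-43-1 (15.8%, against 11.1% of all genes) and 3 rose and 3 fell with shTdp-43-2 (31.6%, against 21.9%). Whether this share differs from that of other genes was not tested. Of the 6 kinesins of cilia and Hedgehog signalling, Kif24, which controls the start of cilia at the centriole, rose with shTdp-43-2. Its arrays read 7.38, 7.21 and 7.01 in shCont, 7.64, 7.05 and 7.19 with shTdp-43-1 and 7.82, 7.77 and 7.44 with shTdp-43-2. The change with shTdp-43-2 was 0.47 ± 0.156 SE (limma adjusted p = 0.0489), called in 9 of 19 other settings (limma adjusted p up to 0.165) and not without any 1 replicate of shCont, shTdp-43-2 replicate 1 or 2 or shTdp-43-1 replicate 3. Kif6, Kif7, Kif9, Kif19a and Kif27 were not called, and Kif12, placed in no group, changed by 0.19 (limma adjusted p = 0.28).

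**Figure D4:**
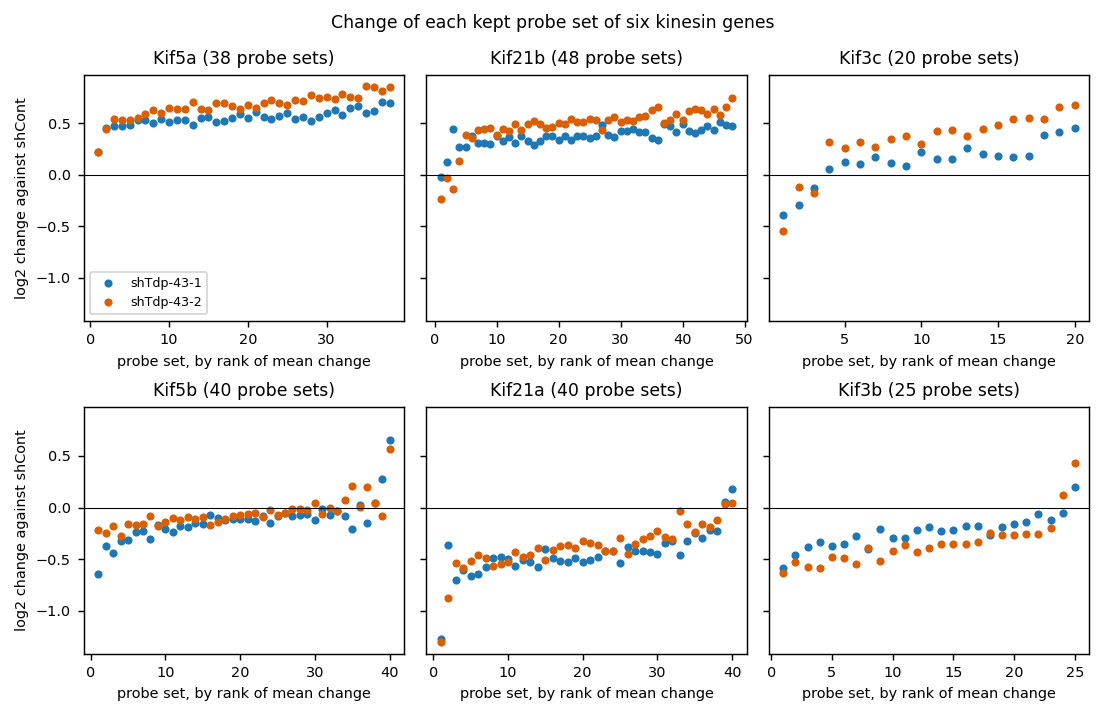
Log2 change against shCont (y axis) of every kept probe set of 6 kinesin genes, ordered by the mean change of both hairpins (x axis); blue is shTdp-43-1 and orange shTdp-43-2. All 38 probe sets of Kif5a are above 0, 38 of 40 of Kif21a are below it, and the lowest probe set of Kif21a is at -1.29 in the mean of both hairpins.

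Tdp-43 is known for its control of splicing, and each probe set was therefore set against the rest of its gene (usage), with limma's diffSplice, over 248694 probe sets. Of 1411 motor gene probe sets 4 were called with shTdp-43-1 (0.283%, against 0.495% of all probe sets) and 16 with shTdp-43-2 (1.13%, against 1.24%). With both hairpins 2 were called the same way (0.142%, against 0.189%), in Kif21a and Kif5b. diffSplice uses a single spread for all probe sets of a gene. With each probe set's own spread, a test added after seeing the data, limma called 0 and 1 motor gene probe sets with shTdp-43-1 and shTdp-43-2 and 0 with both (0.00523%, 0.151% and 0.00362% of all probe sets). In this test 66 and 73 of the 1411 had an unadjusted p under 0.05. That is about the share such a threshold passes where nothing changes. The 4 calls with shTdp-43-1 fell to 1 without shCont replicate 2 or shTdp-43-1 replicate 2 and to 2 without shCont replicate 3, and the 16 with shTdp-43-2 fell to 9 without shCont replicate 1 or shTdp-43-2 replicate 1.

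Probe set 4425224 of Kif21a fell further than its gene. Its own log2 values were 8.75, 8.96 and 9.14 in shCont, 7.83, 7.43 and 7.77 with shTdp-43-1 and 7.63, 8.28 and 7.03 with shTdp-43-2. Minus the mean of the other kept probe sets it read -2.11, -1.85 and -1.65 in shCont, -2.53, -2.87 and -2.75 with shTdp-43-1 and -2.85, -2.24 and -3.36 with shTdp-43-2, so no knockdown array reached the shCont range. Its usage changed by -0.85 ± 0.159 SE with shTdp-43-1 (diffSplice adjusted p = 0.000367) and by -0.94 ± 0.159 with shTdp-43-2 (diffSplice adjusted p = 1.06e-05). The joint call was kept in 15 of 16 other settings and lost with its own spread, where the limma adjusted p was 0.411 and 0.231. A further probe set of Kif21a, 4937059, rose in usage with shTdp-43-1 (0.65 ± 0.159, diffSplice adjusted p = 0.0186) and had a value of 0.45 with shTdp-43-2 (diffSplice adjusted p = 0.209). Its own log2 changes were only 0.18 and 0.05, while the rest of the gene fell. With its own spread the limma adjusted p was 0.299 and 0.399.

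Probe set 4724679 of Kif5b rose in usage with both hairpins, by 0.80 ± 0.182 SE for shTdp-43-1 and 0.64 ± 0.182 for shTdp-43-2 (diffSplice adjusted p = 0.00742 and 0.0448). It is dim, at 6.68, 6.84 and 6.95 in shCont, 7.28, 8.11 and 7.04 with shTdp-43-1 and 7.24, 7.56 and 7.36 with shTdp-43-2. All knockdown arrays were above shCont, but the call in both hairpins was kept in 4 of 15 other settings, and among single libraries only without shTdp-43-1 replicate 1; with its own spread the limma adjusted p was 0.446 and 0.471. The remaining call with shTdp-43-1 was 4622434 of Kif26b (usage 0.76, diffSplice adjusted p = 0.0475), also a dim probe set. It read 7.01, 6.11 and 6.54 in shCont, and its shTdp-43-1 values of 6.95, 6.85 and 6.66 lay within that range. Its own change was 0.27, where the gene changed by -0.45. With its own spread the limma adjusted p was 0.403.

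The probe sets with the largest usage changes with shTdp-43-2 lay in Kif19a and Kif1b; both were picked after their values were seen. Probe set 5555730 of Kif19a, a kinesin of motile cilia, read 10.84, 10.99 and 10.86 in shCont, 10.45, 10.38 and 10.44 with shTdp-43-1 and 9.05, 9.81 and 9.59 with shTdp-43-2. The 3 groups did not overlap. In shCont this probe set read 3.43 to 3.47 above the mean of the other kept Kif19a probe sets, and the gene value averaged 7.63. Whether it reports the same transcript as the others was not tested. Its usage changed by -1.48 ± 0.247 with shTdp-43-2 (diffSplice adjusted p = 1.86e-05), and it was the only motor gene probe set called with its own spread (limma adjusted p = 0.0273). With shTdp-43-1 the value was -0.61 ± 0.247 (diffSplice adjusted p = 0.508).

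Probe set 4352234 of Kif1b, the kinesin-3 of mitochondria and synaptic vesicle precursors, read 10.67, 11.13 and 11.09 in shCont, 10.73, 10.16 and 10.70 with shTdp-43-1 and 9.85, 10.03 and 9.01 with shTdp-43-2. The shTdp-43-2 arrays were the lowest, while the gene as a whole changed by 0.07 with that hairpin. Usage changed by -1.42 ± 0.157 with shTdp-43-2 (diffSplice adjusted p = 1.48e-13; limma adjusted p = 0.0523 with its own spread) and differed between the hairpins by -1.03 ± 0.157 (diffSplice adjusted p = 1.27e-06; limma adjusted p = 0.24 with its own spread). Between the hairpins 2 motor gene probe sets differed (0.142%, against 0.44% of all), and 0 with own spreads. There 56 of 1411 had an unadjusted p under 0.05, no more than such a threshold passes where nothing changes. Beside the Kif1b probe set, the other that differed was 4625770 of Kif21b (diffSplice adjusted p = 0.00489). The usage calls with shTdp-43-2 also included probe sets that moved against a gene itself called there. Their own changes were 0.47 for 5420054 of Dync1li2, 0.43 for 4994670 of Kif3b and -0.54 for 5061472 of Kif3c. The diffSplice adjusted p was 0.000611, 0.00236 and 0.000237, and with own spreads the limma adjusted p was 0.0657, 0.204 and 0.265. In Kif21b 4625770 and 4636002 changed by -0.14 and -0.24. Which exons these probe sets cover was not analysed here.

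**Figure D5:**
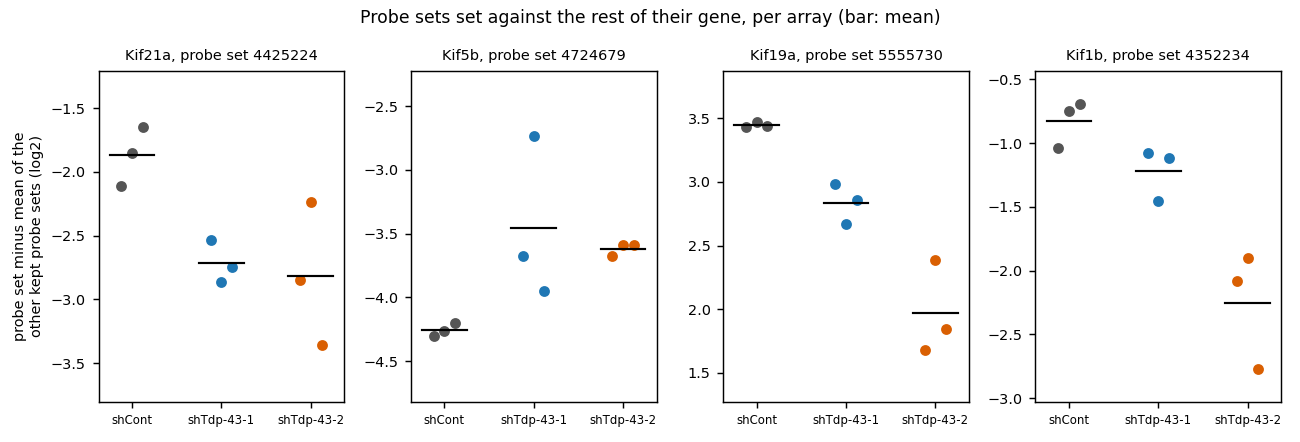
Log2 value of a probe set minus the mean of the other kept probe sets of its gene (y axis) on each array of the 3 groups, for 4 probe sets; bars are means and all axes span the same range. The Kif21a probe set is lower and the Kif5b probe set higher with both hairpins, and the Kif19a and Kif1b probe sets are lowest with shTdp-43-2.

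Genes that work with the motors were taken from 4 lists. Of 45 tested partner genes 4 rose and 2 fell in the mean of both hairpins (13.3%, against 19.3% of all genes), 2 rose and 3 fell with shTdp-43-1 (11.1%, against 11.1%), and 2 rose and 4 fell with shTdp-43-2 (13.3%, against 21.9%). Between the hairpins 2 were higher and 4 lower with shTdp-43-2 (13.3%, against 11.5%). Only Trak1, which rose, and Hap1, which fell, passed the test for each hairpin on its own. Trak1, the adaptor that hangs mitochondria on kinesin, rose on the log2 scale by 0.53 with shTdp-43-1 and 0.54 with shTdp-43-2 (limma adjusted p = 0.00271 and 0.000943). Hap1, which links huntingtin and vesicles to kinesin and dynactin, changed by -0.40 and -0.67 (limma adjusted p = 0.00887 and 0.000171). The calsyntenin Clstn2, of a family that binds kinesin light chains, rose by 0.44 in the mean, and its relative Clstn3, named after its value was seen, by 0.30. These 4 of 19 kinesin adaptors and anchors were called in the mean (21.1%, against 19.3% of all genes). Others of the list were called with a single hairpin and are named, like those of the next lists, after their values were seen. Fez2, a kinesin adaptor, fell by 0.33 with shTdp-43-1 (limma adjusted p = 0.0281). Mapk8ip1, a scaffold that binds kinesin light chains, had a change of -0.32 with shTdp-43-2 (limma adjusted p = 0.0112). It was lower there than with shTdp-43-1, as was Rhot2, a mitochondrial anchor of Trak1 (-0.40 and -0.30, limma adjusted p = 0.00691 and 0.0477).

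Of 14 dynein regulators and adaptors Nde1, which helps Lis1 act on dynein, fell by 0.37 in the mean, with -0.53 for shTdp-43-1 and -0.20 for shTdp-43-2 (limma adjusted p = 0.103). Hook2, an adaptor of dynein, fell by 0.37 with shTdp-43-2 (limma adjusted p = 0.00507). Bicd2, also a dynein adaptor, had -0.35 with shTdp-43-1 and 0.29 with shTdp-43-2, neither called (limma adjusted p = 0.0605 and 0.0807), and differed between the hairpins by 0.63 (limma adjusted p = 0.00339). With Nde1 (0.33) and Hook2 (-0.43), 3 of the 14 were called between the hairpins (21.4%, against 11.5% of all genes). Of 9 dynein light chains and further dynactin subunits, the light chain Dynlt3 fell by 0.55 with shTdp-43-2 (limma adjusted p = 0.00134), had 0.13 with shTdp-43-1 and differed between the hairpins by -0.68 (limma adjusted p = 0.000823). The light chain Dynll2 rose by 0.30 in the mean and was called with neither hairpin alone (limma adjusted p = 0.0846 and 0.0502). Of the 3 kinesins with a motor at the C-terminal end 0 were called by limma with either hairpin or in the mean, and 0 had an unadjusted p under 0.05. In the mean of both hairpins 14 of the 45 had an unadjusted p under 0.05, as had 5577 of all 16770 genes, which is about the same share.

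Markers of the cells the culture could hold were counted in the same way. In the mean of both hairpins 19.3% of all genes were called. The share called was 44.4% of excitatory, 30% of inhibitory, 10% of astrocyte, 42.9% of fibroblast and pericyte and 20% of endothelial markers. Whether these short lists differ from other genes was not tested. Among 9 excitatory neuron markers 2 rose and 2 fell in the mean of both hairpins, and their mean log2 value ranged from 10.27 to 10.42 over shCont, 10.18 to 10.42 over shTdp-43-1 and 10.19 to 10.31 over shTdp-43-2. Of 10 markers of inhibitory neurons 1 rose and 2 fell (10.14 to 10.29, 10.06 to 10.31 and 10.03 to 10.07 in the same order). Of 10 astrocyte markers 1 fell (10.20 to 10.36, 10.16 to 10.19 and 10.06 to 10.14), and of 7 markers of fibroblasts and pericytes 3 fell (8.47 to 8.59, 8.28 to 8.48 and 8.10 to 8.29). Of 5 endothelial markers 1 rose (7.02 to 7.09, 6.995 to 7.21 and 7.13 to 7.30). None of 7 markers of the oligodendrocyte lineage (9.41 to 9.47, 9.46 to 9.58 and 9.35 to 9.48) and of 8 of microglia (7.27 to 7.30, 7.11 to 7.51 and 6.99 to 7.57) was called by limma in the mean, where 0 of each had an unadjusted p under 0.05, or with either hairpin, where 1 oligodendrocyte marker had one with shTdp-43-1.

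Taken per hairpin, 11.1% of all genes were called with shTdp-43-1 and 21.9% with shTdp-43-2. Beside these shares, 1 excitatory marker rose and 1 fell with shTdp-43-1, and 1 fell with shTdp-43-2. Of the inhibitory markers 2 rose and 1 fell with shTdp-43-1, and 1 rose and 3 fell with shTdp-43-2. Sst, which marks a class of interneurons, was at 40.6% of its shCont level with shTdp-43-2 (limma adjusted p = 6.1e-05). Gad1, which makes GABA, was called in opposite directions, at 0.29 with shTdp-43-1 and -0.32 with shTdp-43-2 (limma adjusted p = 0.0372 and 0.014). Gad2 rose with both hairpins, by 0.69 and 0.65 (limma adjusted p = 0.00432 and 0.00264). The remaining calls were Dlx2, at -0.355 with shTdp-43-1, and Dlx1, at -0.36 with shTdp-43-2 (limma adjusted p = 0.0435 and 0.0202). Of the astrocyte markers 1 fell with shTdp-43-1 and 3 with shTdp-43-2, Aqp4, Slc1a2 and Gja1. Of the fibroblast and pericyte markers 2 and 3 fell, with Dcn at 45.0% with shTdp-43-2 (limma adjusted p = 1.8e-05). Of the endothelial markers limma called 0 with shTdp-43-1, where 1 had an unadjusted p under 0.05, and 1 rose with shTdp-43-2. These marker genes were named after their values were seen. The part of any of these in the changes of the motor genes was not tested.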

How the data were processed

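RNA (100 ng per sample) was hybridised to Affymetrix exon arrays, 3 for each of shCont, shTdp-43-1 and shTdp-43-2. The deposited table holds a log2 value for each probe set, which the authors computed by RMA over all exons in Expression Console, per the labels; the submitters' processing notes add build mm9, with software versions not given in the sources used here. RMA corrects background and brings the probes of all arrays to one distribution, so a change shared by most probes is removed and dim probe sets are compressed. The deposited probe set values still differed in their array medians. These were 6.04 to 6.06 in shCont, 6.15 to 6.19 with shTdp-43-1 and 6.06 to 6.09 with shTdp-43-2. The median gene value ranged from 8.75 (shTdp-43-2 replicate 3) to 8.94 (shCont replicate 1). Of 1256831 probe sets 318760 have a single symbol in the platform annotation. Another 14 probe sets under other symbols that are synonyms of a motor gene and 29 with several symbols that include a motor gene were not used. Other symbols were updated through a RefSeq table (GRCm38.p6).

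Gene values were fitted with limma 3.58.1 in R 4.3.3 (lmFit and eBayes) on all 9 arrays with group as the only factor, leaving 6 residual degrees of freedom, over 16770 genes. Contrasts were each hairpin minus shCont, their mean minus shCont, and shTdp-43-2 minus shTdp-43-1. Exact permutation of 3 against 3 arrays cannot go below a two-sided p of 0.1 and was not used. Usage was tested with diffSplice. Scripts were tested on simulated data, in which diffSplice overcalled where probe sets of a gene differed in spread; the own-spread test was added for this reason. The number of arrays limits the precision.

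The members and all lists were chosen with earlier results of these data known. The rule for named genes takes every member called with either hairpin or in their mean, gives array values for those called with both hairpins, between the hairpins or among up to 8 further called members, takes probe sets of changed usage in both hairpins, and at most 3 called partners per list; array values of uncalled members (Kif5b, Kif5c, Dctn1, Kif11) were added after they were seen. Alternatives were other dim filters, scalings, gene summaries and fits, a replicate block, and leaving out each array.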

Additional observations from a re-analysis of the deposited data

Results flagged for a closer look

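Effects of the hairpins against the same shCont arrays differed in 3 of 52 motor genes (5.77%, against 11.5% of all genes tested), by the contrast of shTdp-43-2 with shTdp-43-1. Kif26b differed by 0.68 (limma adjusted p = 0.00583), with all 3 shTdp-43-1 arrays below all 3 shTdp-43-2 arrays. Kif17 differed by -0.31 (limma adjusted p = 0.0381) and Dync1li2 by -0.30 (limma adjusted p = 0.0285), both lower with shTdp-43-2 on every array. With arrays centred on their median 3 genes were higher and 1 lower with shTdp-43-2, against 1 higher and 2 lower as deposited, and quantile normalization gave 2 and 1. Groups of 3 arrays are too small for a test of single outlying arrays.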

How the results depend on the processing

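Of 20 single-gene calls, 11 were kept in all of up to 19 other settings and none changed sign. The count of called motor genes was 2 with shTdp-43-1, against 4, with genes valued at the median of their probe sets and with genes of 1 or 2 probe sets included. It was 3 in the mean of both hairpins, against 5, with no dim filter. Between the hairpins it was 1, against 3, with median gene values, with only the compared groups fitted and, a choice made after seeing the data, with shTdp-43-1 replicate 2 left out together with shTdp-43-2 replicate 3. Leaving out single arrays gave 2 to 4 for shTdp-43-1, 5 to 9 for shTdp-43-2, 3 to 5 for the mean, 1 to 3 between the hairpins, 2 to 3 in both hairpins and 5 to 8 partner genes. For usage, counts with shTdp-43-1 were 7 for a dim filter set to the 25th percentile, 10 without it and 0 with own spreads, against 4. With shTdp-43-2 they were 9 with the filter at the 75th percentile and 1 with own spreads, against 16. In both hairpins they were 1 without a filter and 0 with own spreads, against 2. Single arrays left out gave 1 to 4, 9 to 17 and 1 to 2. The cause of these shifts was not tested.

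Whether replicate numbers pair the samples is unclear, and the main fit used no pairing. Of 9 same-numbered pairs 6 had deviations correlating above 0.1, with r from -0.38 to 0.59. Pairs of replicate 1 had r from 0.34 to 0.59 and pairs of replicate 3 from 0.13 to 0.32. Those of replicate 2 had r from -0.38 to 0.04. In 10 of 18 comparisons an array correlated best with its own number out of 3. The highest r, 0.68, joined arrays of different number, shTdp-43-1 replicate 2 and shTdp-43-2 replicate 3. Leaving these out together was a choice taken over from earlier work on these data; here their mean r with their own group was 0.99 and 0.987, against 0.987 to 0.994 for the others. A replicate block gave 5, 9, 7 and 5 called motor genes for shTdp-43-1, shTdp-43-2, the mean and between the hairpins, 3 in both hairpins, 7 partner genes, and 9, 20 and 2 probe sets of changed usage for shTdp-43-1, shTdp-43-2 and both.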
